A study of Mus musculus with 6 samples.

Results

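A group of 10 well-known long noncoding RNAs was followed in EMT6 mouse mammary carcinoma cells cultured with an antibody against PD-L1. The RNAs were Malat1, Neat1, Gas5, H19, Meg3, Kcnq1ot1, Snhg1, Snhg12, Dancr and Epb41l4aos, out of the 53465 genes in the table, and they were chosen by name. Bulk polyA RNA was sequenced from 6 samples. In 3 samples, here P_VITRO, EMT6 cells had been kept in vitro with an isotype control antibody. In the other 3, here PTR_VITRO and labelled EMT6 PDR, they had been kept with anti-PD-L1. Both antibodies were given at 0.5 µg/ml for more than 4 weeks, in RPMI with serum. All samples came from 1 established cell line, the labels do not say whether replicates of a group were separate cultures, and the study's own rule is that replicates are technical where nothing else is stated. Each p-value therefore measures only the spread between these samples.

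Long noncoding RNAs are transcribed and often spliced like messenger RNAs but are not known to work through a protein product. Malat1 and Neat1 stay in the nucleus, where Malat1 gathers at nuclear speckles, sites rich in splicing factors, and Neat1 is the scaffold of paraspeckles. Gas5, Snhg1, Snhg12, Dancr and Epb41l4aos carry small nucleolar RNAs (snoRNAs), which guide the modification of ribosomal RNA, and the spliced remainder of such host transcripts is commonly removed by nonsense-mediated decay. H19 and Meg3 are imprinted RNAs made from the maternal chromosome, and Kcnq1ot1 is made from the paternal chromosome, antisense to Kcnq1, and silences nearby genes there.

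EMT6 cells contained 8 of the 10 RNAs. The snoRNA hosts Gas5, Snhg1 and Snhg12 held the highest levels per length, H19 and Meg3 had no reads in any sample, and no RNA of the group passed the adjusted threshold between PTR_VITRO and P_VITRO. By edgeR's quasi-likelihood test with Benjamini-Hochberg adjustment over 14217 tested genes, 0 of the 8 detected RNAs passed an adjusted p of 0.05, where 35 genes, or 0.246% of all tested, did. At an unadjusted p of 0.05 the count was again 0 of 8, against 11.4% of tested genes and 7.1% of tested long noncoding genes, and DESeq2 and limma-voom also called 0; with no filter on low counts edgeR called 2, Malat1 and Neat1. Estimates were above 0 for 7 of the 8, with a median log2 fold change of 0.08, beside a median of -0.004 over all tested genes and 0.02 over the 915 tested genes of long noncoding biotypes. Adjusted p-values of the 8 ran from 0.453 to 0.881.

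Sequencing gave 17757341 to 32426739 estimated counts per sample, and the 10 RNAs together took 0.136% to 0.148% of them. Markers of EMT6 cells were present in every sample (Krt8, Krt18, Vim, Col1a1 and Sparc, at 10120 to 63944 counts), although the epithelial marker Epcam had only 30 to 70 counts and Cdh1 at most 1. By edgeR 0 of the 6 tested EMT6 markers were called, but 4 had an unadjusted p under 0.05 and groups without overlap: Krt18 (log2 fold change 0.17) and Epcam (0.48) with higher means in PTR_VITRO, and Col1a1 (-0.18) and Sparc (-0.11) with lower ones. Over all tested genes, 11.4% had such a p and 17.6% had groups without overlap. DESeq2 called Col1a1 (adjusted p = 0.0236) and Krt18 (adjusted p = 0.0449), and edgeR with the replicate number as a block called Col1a1 (adjusted p = 0.0293). None of 11 immune, endothelial and blood markers had enough counts to be tested; the pan-leukocyte marker Ptprc, the T cell marker Cd8a and the macrophage marker Adgre1 had 0 in every sample, and the highest value was 9 counts of Cd79a.

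The 3′ ends of Malat1 and Neat1 bear on how these RNAs enter a polyA library, so they are shown first. Malat1 (lincRNA, chr19:5795690-5802672 on the minus strand, GRCm38) and the long form of Neat1 (lincRNA, chr19:5824708-5845478, minus strand) are known to end in a folded triple helix in place of a polyA tail, with an encoded A-rich stretch that oligo(dT) can bind. In the lines below, read 5′ to 3′ from the GENCODE M21 transcripts, capitals mark the stretches that both RNAs share there, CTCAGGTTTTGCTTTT and AAAAAGCAAAA, which were found by comparing their ends. The Malat1 window is chr19:5795972-5796043 and the Neat1 window chr19:5824708-5824776, both on the minus strand.
Malat1: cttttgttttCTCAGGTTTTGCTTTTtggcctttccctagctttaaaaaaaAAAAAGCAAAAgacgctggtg
Neat1 long form: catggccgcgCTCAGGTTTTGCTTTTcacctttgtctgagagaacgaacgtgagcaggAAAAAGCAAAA
The first stretch followed anywhere by the second, on the transcript strand, was found in the longest transcript of 2 of 14183 tested genes with a sequence (0.0141%), Malat1 and Neat1 themselves, from which the letters were taken.

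The annotated long Neat1 transcript of 20771 bases stopped at the A-rich stretch, while the Malat1 transcript of 6983 bases went on for 292 bases beyond it. The second longest Neat1 transcript, 3004 bases, had a polyadenylation signal, AATAAA, shortly before its end, which the capitals mark in its last 40 bases (chr19:5842307-5842346, minus strand).
Neat1 short form: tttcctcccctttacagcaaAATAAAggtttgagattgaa
The deposited values are sums per gene, so they do not separate the forms.

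Malat1 was measured at 149, 163 and 172 CPM (estimated counts per 1000000 counts, upper quartile scaled) in P_VITRO replicates 1, 2 and 3, and at 166, 126 and 140 CPM in PTR_VITRO replicates 1, 2 and 3. PTR_VITRO replicates 2 and 3 were below every P_VITRO sample, but replicate 1 lay inside their range, so the groups overlapped. The means were 161 ± 11.9 CPM in P_VITRO and 144 ± 20.4 CPM in PTR_VITRO (SD, n = 3 each), a log2 fold change of -0.16 with a standard error of 0.09 and a 95% interval of -0.36 to 0.03 (edgeR adjusted p = 0.525). Without PTR_VITRO replicate 1 the estimate was -0.28 (edgeR adjusted p = 0.113), and leaving out the other samples gave values up to -0.07.

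RNAs listed as lacking a polyA tail were followed beside Malat1. Whether the reads counted for them came from tailed forms was not tested. Of 18 tested RNAs on that list, mostly replication-dependent histone messages together with Rn7sk, Rmrp and Rpph1, 16 had estimates below 0, with a median log2 fold change of -0.29. An unadjusted p of 0.05 was reached by 3 of the 18, all lower, and by 11.4% of all tested genes. By edgeR 0 of 18 passed the adjusted threshold. The smallest p-values belonged to the linker histone genes Hist1h1c and Hist1h1d, the latter at 1.42 ± 0.348 CPM in P_VITRO and 0.878 ± 0.0663 CPM in PTR_VITRO (SD, n = 3 each; log2 fold change -0.70, edgeR adjusted p = 0.310). DESeq2 called Hist1h1c, whose mean was 14.96 ± 3.18 CPM in PTR_VITRO against 23.5 ± 3.69 CPM in P_VITRO (SD, n = 3 each; edgeR log2 fold change -0.62, adjusted p = 0.139). In other settings edgeR called Hist1h1c too, with the replicate number as a block (adjusted p = 0.0453) and with no filter on low counts (5.41e-13). It was also called by edgeR without P_VITRO replicate 2 (adjusted p = 0.0358) and without PTR_VITRO replicate 1 (0.0249). Rn7sk, the scaffold of the complex that holds back the elongation factor P-TEFb, had 6.59, 7.04 and 8.52 CPM in P_VITRO replicates 1 to 3 and 6.72, 4.69 and 5.22 CPM in PTR_VITRO replicates 1 to 3. Its lowest samples, PTR_VITRO replicates 2 and 3, were also the lowest for Malat1. The part of such RNAs in the Malat1 values was not tested. Mitochondrial genes took 1.43% to 1.63% of counts in P_VITRO and 1.33% to 1.64% in PTR_VITRO.

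A gene annotated on the strand opposite Malat1, Gm37376, shares 453 identical bases with it, and the sources used here do not state whether reads were assigned by strand. Gm37376 held 0.0214% to 1.66% of the sum of both genes. With its counts added, the log2 ratio of the group means was -0.16, as for Malat1 alone.

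Neat1 had 129, 107 and 107 CPM in P_VITRO replicates 1, 2 and 3, and 177, 117 and 114 CPM in PTR_VITRO replicates 1, 2 and 3. PTR_VITRO replicate 1 stood above all other samples, at 1.54 times their mean, while PTR_VITRO replicates 2 and 3 lay between the P_VITRO samples. The group means were 114 ± 12.6 CPM and 136 ± 35.6 CPM (SD, n = 3 each), with a log2 fold change of 0.26, a standard error of 0.14 and a 95% interval of -0.06 to 0.58 (edgeR adjusted p = 0.535). Without PTR_VITRO replicate 1 the estimate was 0.02, so the difference in means rested on that library. With no filter on low counts, both Malat1 (log2 fold change -0.16, adjusted p = 0.0381) and Neat1 (0.26, adjusted p = 2.14e-05) passed edgeR's threshold with the estimates themselves at the same values. Standard errors were smaller there, at 0.047 for Malat1 against 0.087 with the filter, and 0.048 for Neat1 against 0.14. Calls over all genes went from 35 to 400.

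**Figure D1:**
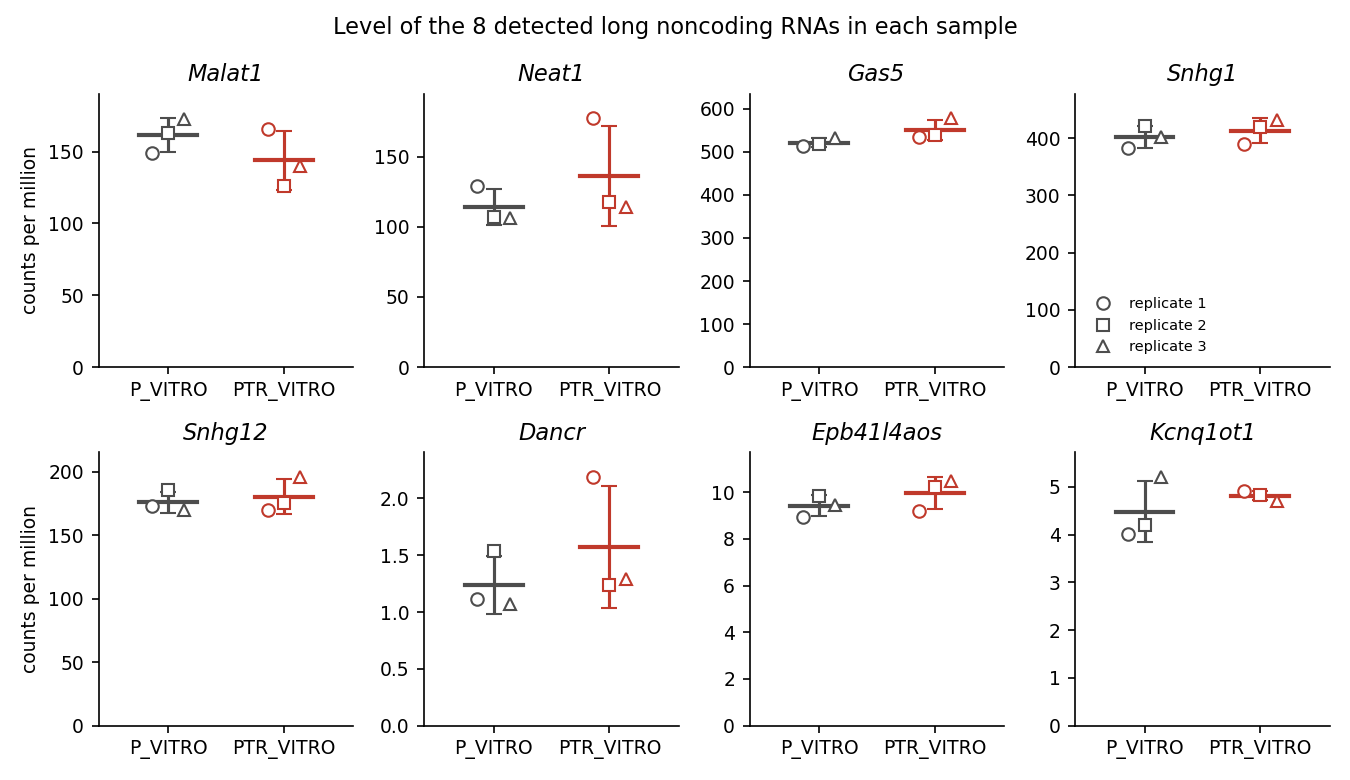
CPM (vertical axes, starting at 0) of the 8 detected RNAs in P_VITRO (grey) and PTR_VITRO (red); each symbol is a sample, bars are group means and whiskers 1 SD. PTR_VITRO replicate 1 (circle) is the highest sample for Neat1 at 177 CPM and for Dancr at 2.19 CPM, and Gas5 is the only RNA whose groups do not overlap.

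The ratio of Neat1 to Malat1, a measure chosen after these values were seen, put the nuclear RNAs side by side. In counts it was 0.866, 0.659 and 0.619 in P_VITRO replicates 1 to 3 and 1.07, 0.934 and 0.814 in PTR_VITRO replicates 1 to 3. The lowest PTR_VITRO sample was below the highest P_VITRO sample. On the log2 scale the difference of the means was 0.40 (SD 0.26 in P_VITRO and 0.20 in PTR_VITRO, n = 3 each). No test is given, since the ratio was chosen on these values.

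The proteins that share nuclear bodies with these RNAs were read from lists. Of 14 paraspeckle protein genes, all tested, 9 had estimates above 0 and 5 below, with a median log2 fold change of 0.03. By edgeR, DESeq2 or limma-voom 0 were called, and 3 reached an unadjusted p of 0.05, as did 11.4% of all tested genes. The smallest p-values belonged to Smarca4, a chromatin remodelling ATPase at 133 ± 1.66 CPM in P_VITRO and 122 ± 0.848 CPM in PTR_VITRO (log2 fold change -0.12, edgeR adjusted p = 0.210), and to Hnrnph3, an RNA-binding protein at 33.4 ± 1.34 and 37.6 ± 2.05 CPM (0.17, adjusted p = 0.287; SD, n = 3 each). Nuclear speckle protein genes numbered 20, of which 9 had estimates above 0 and 11 below. Of the 20, 4 had an unadjusted p under 0.05, beside the same 11.4% of all tested genes, and 0 passed edgeR's adjusted threshold. The splicing factor gene Srsf5 had the smallest p, at 220 ± 10.9 CPM in P_VITRO and 189 ± 15.1 CPM in PTR_VITRO (SD, n = 3 each; log2 fold change -0.22, edgeR adjusted p = 0.175), and it was called by DESeq2 (adjusted p = 0.0239). Clk1, a kinase of splicing factors, gave a log2 estimate of 0.17 (edgeR adjusted p = 0.195). Frmd8, a gene near Neat1, was estimated at -0.10 on the log2 scale (edgeR adjusted p = 0.618).

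Many snoRNA hosts are known for starting with a run of pyrimidines, as ribosomal protein messages do (a 5′ terminal oligopyrimidine tract, 5′ TOP). The annotated starts of 4 of the 5 hosts are shown so that this feature can be read beside the 5′ TOP messages compared further on; that of Epb41l4aos is not shown. The lines give the first 40 bases of the longest GENCODE M21 transcript on GRCm38, all on the plus strand, with the unbroken opening run of C or T in capitals. The windows are chr1:161035166-161035205 for Gas5, chr19:8723487-8723526 for Snhg1, chr4:132308676-132308715 for Snhg12 and chr5:74093060-74093099 for Dancr.
Gas5: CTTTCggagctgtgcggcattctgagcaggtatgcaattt
Snhg1: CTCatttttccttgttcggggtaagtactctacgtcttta
Snhg12: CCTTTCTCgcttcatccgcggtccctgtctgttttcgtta
Dancr: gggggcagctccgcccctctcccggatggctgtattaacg
The opening run held 5 bases in Gas5, 3 in Snhg1, 8 in Snhg12 and 0 in Dancr. A run of 5 or more opened the longest transcript of 4.41% of the 14183 tested genes with a sequence, of 7 of the 14 listed 5′ TOP messages and of 1 of the 9 tested other noncoding snoRNA hosts. A longest transcript need not begin at the start site most used in these cells.

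Gas5 (processed transcript, chr1:161034422-161038539, plus strand), a growth-arrest RNA that hosts 10 annotated snoRNA genes, was the most abundant of the 10 RNAs. Its values were 513, 518 and 532 CPM in P_VITRO replicates 1 to 3 and 534, 540 and 578 CPM in PTR_VITRO replicates 1 to 3. All PTR_VITRO samples were above all P_VITRO samples by a narrow margin, the nearest pair being 532 and 534 CPM. Groups without overlap were thus seen for 1 of the 8 RNAs and for 17.6% of all tested genes. The means were 521 ± 10.02 and 551 ± 23.8 CPM (SD, n = 3 each), a 1.06-fold difference with a 95% interval of 0.998 to 1.12 (log2 fold change 0.08, edgeR adjusted p = 0.453). Over the samples left out in turn, the log2 fold change of Gas5 stayed between 0.05 and 0.10.

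Snhg1 (chr19:8723475-8726443, plus strand, 8 annotated snoRNA genes) had 383, 421 and 403 CPM in P_VITRO replicates 1 to 3 and 389, 419 and 431 CPM in PTR_VITRO replicates 1 to 3. The groups overlapped almost wholly, and the log2 fold change was 0.04 with a 95% interval of -0.07 to 0.14 (edgeR adjusted p = 0.813). That estimate was 0.0076 without P_VITRO replicate 1 and 0.080 without PTR_VITRO replicate 1, the ends of its range over samples left out. Snhg12 (chr4:132308623-132311024, plus strand, 5 annotated snoRNA genes) had 173, 186 and 170 CPM against 170, 175 and 196 CPM, in the same order. Its log2 fold change was 0.03 with an interval of -0.09 to 0.15 (edgeR adjusted p = 0.881), and it turned to -0.027 without PTR_VITRO replicate 3, its highest sample.

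Epb41l4aos (chr18:33794892-33795986, plus strand, 1 annotated snoRNA gene) had 8.95, 9.85 and 9.47 CPM in P_VITRO replicates 1 to 3 and 9.19, 10.2 and 10.5 CPM in PTR_VITRO replicates 1 to 3. PTR_VITRO replicates 2 and 3 were the highest samples, and replicate 1 was within the P_VITRO range. Its log2 fold change was 0.07, with an interval of -0.12 to 0.27 (edgeR adjusted p = 0.808), and the estimate lay between 0.043, without P_VITRO replicate 1, and 0.13, without PTR_VITRO replicate 1. Dancr (chr5:74093060-74095406, plus strand), an RNA known for holding back differentiation and the host of Snora26, was scarce, with 22.5 to 71.0 counts per sample. It had 1.11, 1.54 and 1.08 CPM in P_VITRO replicates 1 to 3 and 2.19, 1.24 and 1.29 CPM in PTR_VITRO replicates 1 to 3. PTR_VITRO replicate 1 was again the highest, at 1.75 times the mean of the other 5, and the remaining PTR_VITRO samples lay inside the P_VITRO range. The log2 fold change of 0.36 had the widest interval of the 8 RNAs, -0.25 to 0.97 (edgeR adjusted p = 0.671), and was 0.01 without PTR_VITRO replicate 1.

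**Figure D2:**
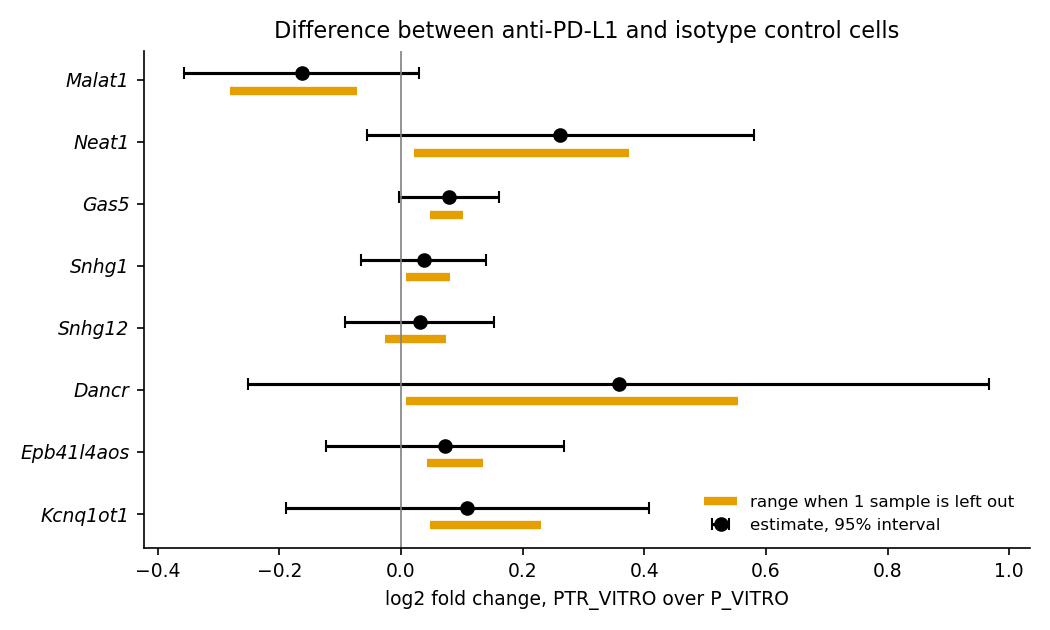
Log2 fold change of PTR_VITRO over P_VITRO (horizontal axis) for the 8 detected RNAs; black points and whiskers are edgeR estimates with 95% intervals, and orange bars span the estimates when each of the 6 samples was left out in turn. Every interval includes 0, Dancr and Neat1 have the widest intervals, and only the Snhg12 bar crosses 0.

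PTR_VITRO replicate 1 was the deepest library, with 32426739 counts. Of 11804 genes with a mean of at least 50 counts, 23 were at least 1.3 times higher in it than in every other sample, and the counts for the other libraries ran from 5 to 19. Whether the Neat1 and Dancr values in that library reflect the culture, the RNA or the library was not tested.

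The snoRNAs inside the hosts were almost absent from these libraries. Across 28 snoRNA and microRNA genes annotated within the 10 RNAs on the same strand, 21 had 0 counts in all 6 samples. Snord80 in Gas5 and Snora16a in Snhg12 each have a duplicate annotated row at nearly the same place, which is counted as a gene here. The highest value was 28.9 counts, for Gm22357 within Gas5, and this was the only one to be tested (log2 fold change 0.19, edgeR adjusted p = 0.897). Most of these genes overlap annotated exons of their host, and how reads there were shared between the rows was not tested.

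The list of other noncoding snoRNA hosts held 16 symbols, of which 14 were in the table and 9 were tested; 4 had estimates above 0 and 5 below, with a median log2 fold change of -0.01, a range of -0.15 to 0.10, and 0 called by edgeR, DESeq2 or limma-voom, also 0 at an unadjusted p of 0.05. The smallest p belonged to 1810032O08Rik, the host listed as Snhg16, at 60.6 ± 6.30 CPM in P_VITRO and 54.8 ± 2.56 CPM in PTR_VITRO (SD, n = 3 each; log2 fold change -0.15, edgeR adjusted p = 0.445). Snhg20 came next, at 5.86 ± 0.444 and 5.39 ± 0.797 CPM (SD, n = 3 each; log2 fold change -0.10, adjusted p = 0.820). Zfas1, the most abundant of them, had 352 ± 10.4 and 347 ± 20.8 CPM (SD, n = 3 each; log2 fold change -0.02, adjusted p = 0.904).

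Genes that make or remove the hosts' products were compared next. All 14 listed snoRNP protein genes were tested, and 0 were called by edgeR, DESeq2 or limma-voom or reached an unadjusted p of 0.05, with a median log2 fold change of -0.02. The smallest p-values were those of Ruvbl2, an ATPase of snoRNP assembly (-0.05, edgeR adjusted p = 0.670), and Nhp2, a core protein of box H/ACA snoRNPs (-0.05, adjusted p = 0.684). Of 14 nonsense-mediated decay factors 0 were called by those tools, and 1, Eif4a3, an exon junction complex helicase, reached an unadjusted p of 0.05 (190 ± 2.86 CPM in P_VITRO, 179 ± 3.45 CPM in PTR_VITRO, SD, n = 3 each; log2 fold change -0.09, edgeR adjusted p = 0.369). Smg5, which helps to dephosphorylate the decay factor UPF1, had 97.5 ± 1.13 and 93.1 ± 2.85 CPM (SD, n = 3 each; -0.07, adjusted p = 0.571). The 5′ TOP messages, known to share the pyrimidine start of such hosts, had 11 of 14 estimates below 0, with a median of -0.05. The 5 snoRNA hosts among the 10 RNAs all had estimates above 0 (Snhg12 not without PTR_VITRO replicate 3). With 1 sample left out, Snhg1 was as low as 0.0076 and Dancr 0.0080. Of the 9 other tested noncoding hosts, 4 had estimates above 0 and 5 below, with a median of -0.01. Of the 14 listed 5′ TOP messages, 0 were called by edgeR, DESeq2 or limma-voom, and 4 reached an unadjusted p of 0.05, all lower. Over all tested genes 11.4% reached it. Rack1, a scaffold protein of the small ribosomal subunit, had 1525 ± 32.9 CPM in P_VITRO and 1427 ± 15.3 CPM in PTR_VITRO (SD, n = 3 each; log2 fold change -0.10, edgeR adjusted p = 0.233), and the elongation factor gene Eef2 gave a log2 estimate of -0.09 (adjusted p = 0.206). The difference between these lists was not tested.

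Several of the hosts had similar patterns over the 6 samples. Pearson's r of log2 CPM was 0.97 between Snhg1 and Epb41l4aos, 0.81 between Snhg1 and Snhg12 and 0.76 between Neat1 and Dancr, while Snhg1 and Neat1 had r = -0.62. These are descriptions over 6 samples that share their libraries and scaling. Outside the 10 RNAs, among 11797 genes with a mean of at least 50 counts, the gene most like Snhg1 was Nop58 (r = 0.998), the core protein of box C/D snoRNPs. Nop58 had 503, 543 and 523 CPM in P_VITRO replicates 1 to 3 and 508, 542 and 551 CPM in PTR_VITRO replicates 1 to 3. Of the same genes, 312 (2.64%) had an r above 0.9 with Snhg1, the highest share of the 8 RNAs, and 33 (0.28%) with Dancr, the lowest. The closest genes to the others were Cttn for Malat1 (r = 0.990), Efemp2 for Neat1 (0.994), Cpsf3 for Gas5 (0.992), Rae1 for Kcnq1ot1 (0.989), Msh5 for Snhg12 (0.985), Stk25 for Dancr (0.990) and Zfp952 for Epb41l4aos (0.995).

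**Figure D3:**
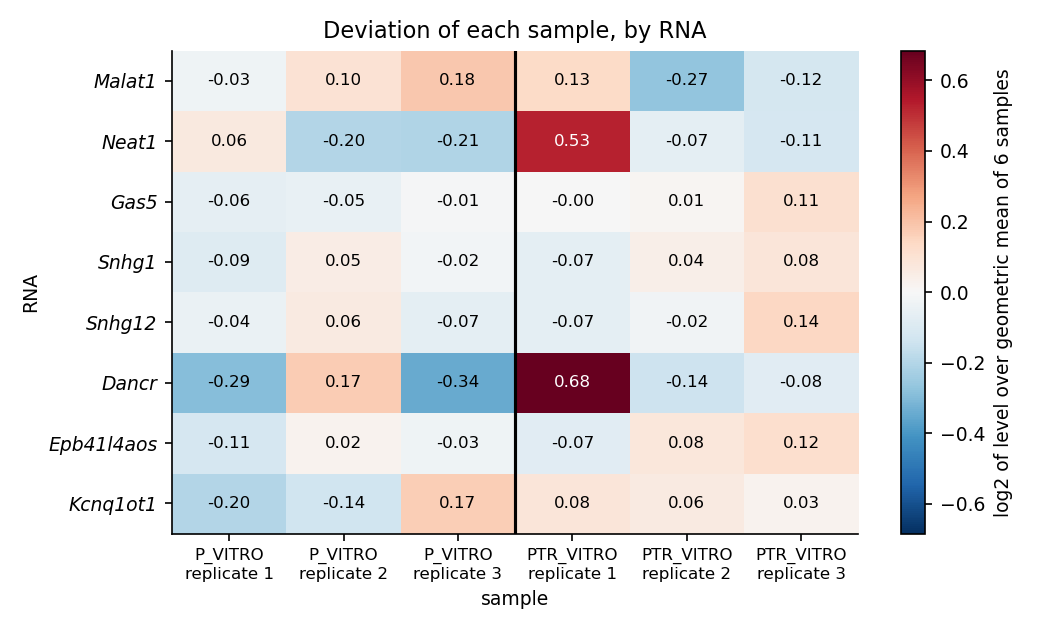
Log2 of each sample's level over the geometric mean of the 6 samples (colour and printed value) for the 8 detected RNAs; columns are samples, and the vertical line parts P_VITRO from PTR_VITRO. Neat1 (0.53) and Dancr (0.68) stand out in PTR_VITRO replicate 1, and Gas5, Snhg1, Snhg12 and Epb41l4aos vary by at most 0.14.

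The spread between replicates differed among the RNAs. The within-group SD of log2 CPM was 0.05 for Gas5, 0.07 for Snhg1, 0.09 for Snhg12 and 0.09 for Epb41l4aos, beside a median of 0.09 over all tested genes. It was 0.14 for Kcnq1ot1, 0.16 for Malat1, 0.28 for Neat1 and 0.36 for Dancr, and 86.6% of tested genes had a smaller SD than Neat1. Malat1 and Neat1 were well counted, with means of 3990 and 3316 counts per sample, whereas Dancr had a mean of 37.8 counts.

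H19 (chr7:142575529-142578143, minus strand) and Meg3 (chr12:109541001-109571726, plus strand) had 0 counts in all 6 samples. A count of 0 allows up to 3 counts per library, that is 0.0925 to 0.168 CPM, so any H19 or Meg3 RNA was not detectable at this depth, and neither was tested. Their imprinted neighbours were as scarce. Igf2, the growth factor gene beside H19, had 0 to 3 counts, and Dlk1 and Rtl1, beside Meg3, had 0 in every sample. Rian and Mirg, which follow Meg3 on the same strand, had at most 1 count, and the microRNA rows within both genes, Mir675 in H19 and Mir770 and Mir1906-1 in Meg3, were at 0. Mrpl23, a mitochondrial ribosomal protein gene next to H19, had 20.8 ± 0.939 CPM in P_VITRO and 19.3 ± 1.76 CPM in PTR_VITRO (SD, n = 3 each; log2 fold change -0.10, edgeR adjusted p = 0.664).

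Kcnq1ot1 (antisense, chr7:143203458-143296549, minus strand) was detected at 84 to 159 counts spread over 93.1 kb. Its values were 4.02, 4.21 and 5.21 CPM in P_VITRO replicates 1 to 3 and 4.90, 4.84 and 4.71 CPM in PTR_VITRO replicates 1 to 3. All PTR_VITRO samples were inside the P_VITRO range, and the log2 fold change was 0.11 with a 95% interval of -0.19 to 0.41 (edgeR adjusted p = 0.811). It was 0.047 without P_VITRO replicate 1 and 0.23 without P_VITRO replicate 3, its lowest and highest samples, with the other omissions in between. Kcnq1, on the opposite strand, had 2 to 7 counts, and Gm42636, which matches 375 bases of Kcnq1ot1 at 95.7% identity, had 10 to 17 counts, so reads shared with copies could move a small part of the value.

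Genes of the Kcnq1ot1 domain were present at very different levels. Cdkn1c, a cell cycle inhibitor silenced by the RNA on the paternal chromosome, had at most 1 count. Phlda2, a placental growth regulator in the same domain, had 33.2 ± 2.81 CPM in P_VITRO and 29.1 ± 3.17 CPM in PTR_VITRO (SD, n = 3 each; log2 fold change -0.20, edgeR adjusted p = 0.400), and Slc22a18, Tssc4 and Cd81 had log2 fold changes of -0.04, -0.01 and 0.00058. Of 39 imprinted genes listed, 16 had 0 counts in every sample and 16 were tested. By edgeR, DESeq2 and limma-voom 0 of these were called, 2 reached an unadjusted p of 0.05 (11.4% of all tested genes did), and the median log2 fold change was 0.01. The smallest p was that of Igf2r, the receptor that clears IGF2, at 33.0 ± 0.478 CPM in P_VITRO and 29.2 ± 1.08 CPM in PTR_VITRO (SD, n = 3 each; log2 fold change -0.18, edgeR adjusted p = 0.208).

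Levels of different RNAs were compared per length, as TPM (transcripts per 1000000 transcripts) from the union of each gene's exons. Over the 6 samples Gas5 had 379 ± 19.6 TPM, Snhg1 365 ± 22.0 TPM and Snhg12 198 ± 13.8 TPM (SD, n = 6). Gas5 and Snhg1 overlapped, with Gas5 the higher in 5 of 6 samples, and every Snhg12 value was below every Snhg1 value. Epb41l4aos (60.03 ± 4.53 TPM) and Malat1 (58.0 ± 6.18 TPM) overlapped as well. Malat1 had the higher mean in P_VITRO (61.0 against 57.95 TPM) and Epb41l4aos in PTR_VITRO (62.1 against 55.02 TPM), and the 2 of 6 samples in which Epb41l4aos was the higher were PTR_VITRO replicates 2 and 3. Below them came Neat1 at 16.01 ± 3.31 TPM, Dancr at 1.59 ± 0.470 TPM and Kcnq1ot1 at 0.133 ± 0.0126 TPM (SD, n = 6), each with a range clear of its neighbours. Neat1 counts were divided by 20.77 kb, the length of its long form. For reads from the 3004-base form that length is too long, which could change the place of Neat1. The share of such reads was not tested. Among tested genes, 97.0% had a lower mean TPM than Gas5, 81.1% than Malat1, 52.3% than Neat1 and 0.274% than Kcnq1ot1. The order of the 8 was unchanged when the longest transcript's length was used, although Gas5 then had 442 TPM and Snhg1 315 TPM. That length differs from the exon union only for Gas5, Snhg1 and Snhg12, so it could not change the order among the rest. Malat1 and Neat1 levels in a polyA library need not equal their levels in the cell.

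**Figure D4:**
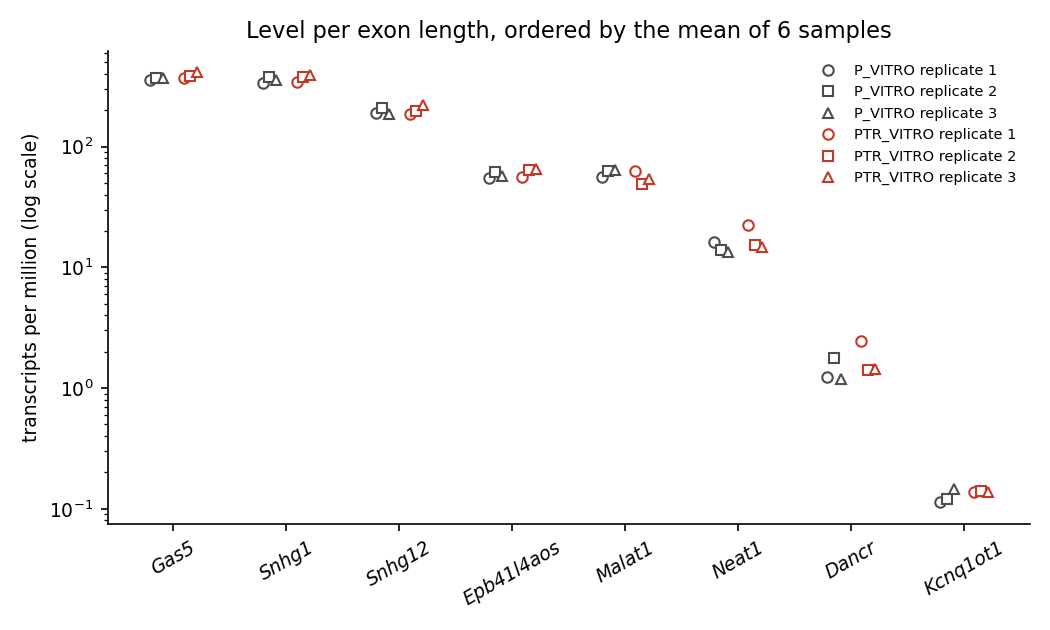
TPM on a log axis for the 8 detected RNAs, ordered by the mean of the 6 samples; grey symbols are P_VITRO and red symbols PTR_VITRO samples. Gas5 overlaps Snhg1 and Epb41l4aos overlaps Malat1, while the mean falls from 379 TPM for Gas5 to 0.133 TPM for Kcnq1ot1.

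Of 25 other named long noncoding RNAs, 5 had 0 counts in every sample, among them Hotair, Hottip and Tsix, and Xist, the RNA of the inactive X chromosome, had at most 3 counts. Of the 15 tested, 9 had estimates above 0 and 6 below, with a median log2 fold change of 0.03, and 0 were called by edgeR, DESeq2 or limma-voom, also 0 at an unadjusted p of 0.05. Jpx, an RNA from the X inactivation centre, had the smallest p (6 to 23 counts per sample; log2 fold change 0.87, edgeR adjusted p = 0.441). Tug1, a widely expressed nuclear RNA, was next at 126 ± 2.17 CPM in P_VITRO and 132 ± 3.36 CPM in PTR_VITRO (SD, n = 3 each; 0.07, adjusted p = 0.526). Among all 915 tested genes of long noncoding biotypes 1 was called (0.109%), the antisense RNA Gm45774, named after its value was seen, with a log2 estimate of -0.47 (edgeR adjusted p = 0.00529).

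**Figure D5:**
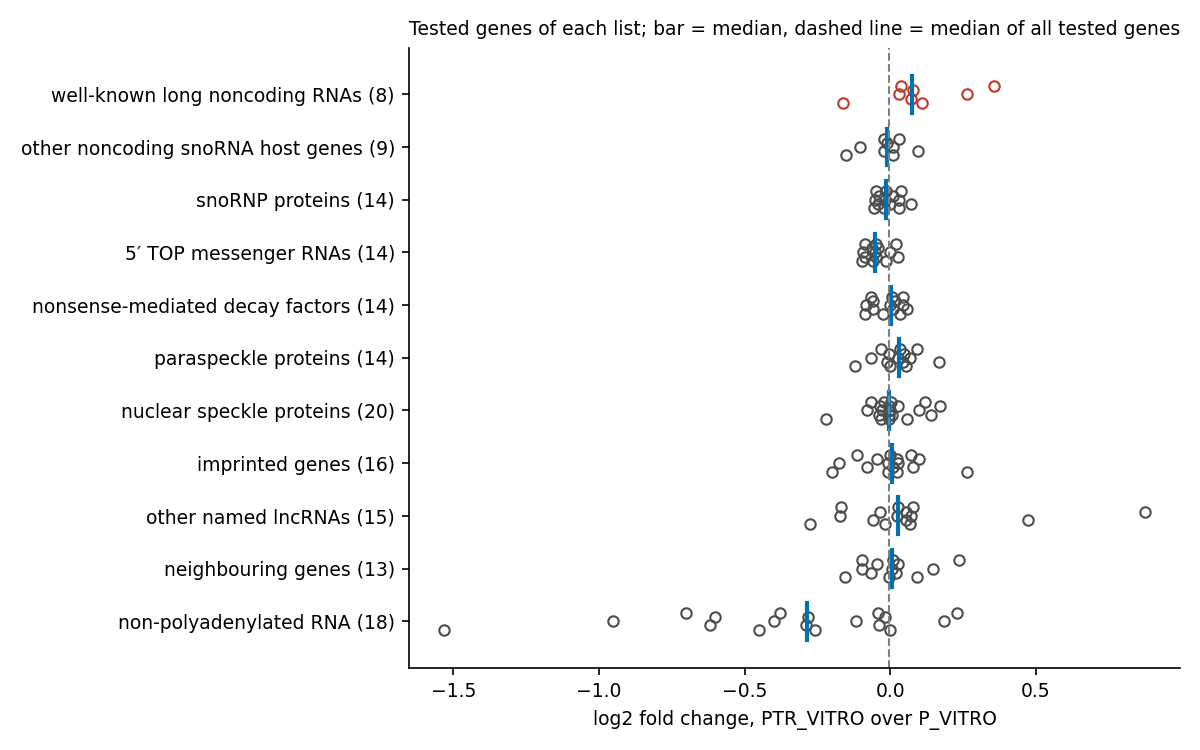
Log2 fold change of PTR_VITRO over P_VITRO for each tested gene (circles) of the lists on the vertical axis, with the number tested in brackets; blue bars are list medians and the dashed line the median of all tested genes. The 8 well-known long noncoding RNAs (red) have a median of 0.08, and the non-polyadenylated RNAs lie lowest, with a median of -0.29.

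The genes beside the 10 RNAs were last. Of 20 neighbouring or overlapping genes 13 were tested and 0 called by edgeR, DESeq2 or limma-voom, with a median log2 fold change of 0.01. Only 1 reached an unadjusted p of 0.05, where 11.4% of all tested genes did. That gene was Trnau1ap, a selenocysteine tRNA partner next to Snhg12, at 23.6 ± 0.529 CPM in P_VITRO and 21.2 ± 1.23 CPM in PTR_VITRO (SD, n = 3 each; log2 fold change -0.16, edgeR adjusted p = 0.362). Slc3a2, the amino acid transporter heavy chain that lies beside Snhg1, had 705 ± 18.7 and 672 ± 22.9 CPM (SD, n = 3 each; -0.07, adjusted p = 0.517). Zbtb37, which overlaps the Gas5 locus on the opposite strand without sharing exons, had 12.1 ± 1.52 and 13.0 ± 0.841 CPM (SD, n = 3 each; 0.09, adjusted p = 0.774), and Epb41l4a, the partner of Epb41l4aos, gave a log2 estimate of 0.03 (adjusted p = 0.827).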

How the data were processed

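PolyA RNA of 6 samples was made into TruSeq Stranded mRNA libraries. The deposited values are estimated counts per gene that the authors made with STAR 2.6.0a and RSEM 1.3.1 on GRCm38 after FastQC 0.11.5, per the submitters' processing notes; they were not scaled between samples. Here they were rounded and tested with edgeR 4.0.16 (quasi-likelihood; upper quartile scaling; genes kept by filterByExpr with a minimum count of 10 and a minimum total of 15) in R 4.3.3. Calls are Benjamini-Hochberg adjusted p under 0.05 over 14217 genes. Reads are not independent molecules, so limits from 3 counts cover counting error only.

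Genes were named and placed with GENCODE M21 (GRCm38), which placed 53360 of 53465 rows. TPM came from union exon lengths, and copies from BLAST 2.17.0 (at least 95% identity over 200 bases). Members and lists were chosen with earlier results of these data known. Named genes were all 10 RNAs, in each list every called gene and the pair with the smallest p, neighbours, small RNAs, and the most correlated gene of each RNA; others were named to describe a locus or a level, after their values were seen. Of the listed snoRNA hosts, 2 symbols matched no row. Tests were checked on simulated data. Alternatives were TMM, no scaling, DESeq2 1.42.0, limma-voom (limma 3.58.1), other filters, a replicate block and leaving out each sample.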

Additional observations from a re-analysis of the deposited data

How the results depend on the processing

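Across scaling, tool, filter and block settings, 53 of 56 estimates for the 8 RNAs kept their direction and stayed above an adjusted p of 0.05, as did 47 of 48 with a sample left out. The exceptions were Malat1 (-0.16) and Neat1 (0.26), called with no filter on low counts, which took the members called from 0 to 2, and Snhg12, whose estimates ran from -0.027 (without PTR_VITRO replicate 3) to 0.074 with a sample left out. The cause was not tested. Dancr kept its direction in DESeq2 but had no adjusted p there. Low counts limit Dancr, and depth sets the limits for H19 and Meg3.

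Over all tested genes the 35 calls became 111 with DESeq2, 400 with no filter, 54 when each sample needed 10 counts, 68 with a replicate block and 8 to 64 with a sample left out (11 without P_VITRO replicate 1, 64 without P_VITRO replicate 2, 9 without P_VITRO replicate 3, 12 and 8 without PTR_VITRO replicates 2 and 3). For the long noncoding biotypes the 1 call became 2 with no scaling factor, 3 with DESeq2, 31 with no filter, 3 when each sample needed 10 counts, 2 with the block and 1 to 3 with a sample left out. Nuclear speckle proteins went from 0 to 1 with DESeq2, 2 with no filter, and 0 to 1 with a sample left out (1 without PTR_VITRO replicate 1). Non-polyadenylated RNAs went from 0 to 1 with DESeq2, 2 with no filter, 1 with the block, and 0 to 1 with a sample left out (1 without P_VITRO replicate 2 or PTR_VITRO replicate 1).

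With the replicate block Neat1 was estimated at 0.23 on the log2 scale (edgeR adjusted p = 0.174), and the block called 0 of the 8 RNAs. Samples that share a number were not shown to be paired: their deviations correlated at 0.11, 0.10 and -0.06.

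With the longest transcript as length, mean levels were 442 TPM for Gas5, 315 for Snhg1, 245 for Snhg12, 47.6 for Epb41l4aos, 46.0 for Malat1, 12.7 for Neat1 and 0.105 for Kcnq1ot1. As upper quartile scaled CPM per kilobase they were 143, 137, 74.2, 22.6, 21.8, 6.03 and 0.0499 in that order, and 0.599 for Dancr; that unit is not scaled to a total, so its values are not TPM.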
